A study of Mus musculus with 9 samples.

Results

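The 9 genes described here, Ech1, Ehhadh, Hsd17b4, Acaa1a, Pex11a, Abcd3, Acot1, Acot2 and Acot8, encode proteins of peroxisomal fatty acid oxidation and acyl-CoA thioesterases. They were taken by symbol from a table of 18738 genes, in which 9 of 9 were found. The libraries came from cardiomyocytes isolated on postnatal day 0 from the hearts of wild-type (WT) C57BL/6J mouse pups. Dams ate 1 of 3 diets, allotted at random, for the whole pregnancy. The diets were high in fat (HFD), slightly high in fat (sHFD) or normal (ND), and each had 3 RNA-seq libraries. The fat content of the diets and the number of litters or pups behind a library are not given in the labels, so p-values measure the spread between these libraries, which may be technical.

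Peroxisomes shorten very long-chain, branched and dicarboxylic fatty acids, which mitochondria handle poorly. Acyl-CoA esters enter through ABC transporters, pass an oxidase, a bifunctional enzyme and a thiolase, and leave as shortened esters that mitochondria can finish. Acyl-CoA thioesterases split such esters into free fatty acid and coenzyme A in the cytosol, the mitochondrion or the peroxisome. Many genes of both groups are known targets of the fatty acid receptor PPAR alpha in liver and heart, and the newborn heart is turning from glucose and lactate to fatty acids as its fuel.

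Expression was given in TPM, a share of all transcripts that is corrected for transcript length, so that levels of different genes can be set side by side. No pair of libraries was identical, and 16722 to 17105 genes were above 0 in a library. ND replicate 1 stood nearer to the HFD libraries (mean Pearson correlation of log2(TPM + 1) across genes 0.980) than to the other ND libraries (0.962). The 12 immediate-early and heat-shock genes, which rise within minutes of cell stress, summed to 6452 to 10594 TPM in the HFD libraries, 1708 to 1896 TPM in the sHFD libraries, and 9227, 1769 and 4624 TPM in ND replicates 1 to 3. Their part in the results below was not tested.

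In GRCm38.p6 coordinates of RefSeq, Ech1 lies on chromosome 7 (28825338 to 28832239), as does Pex11a (79735957 to 79743131). Ehhadh lies on chromosome 16 (21761285 to 21787834), Acaa1a on chromosome 9 (119341028 to 119350296), Abcd3 on chromosome 3 (121758904 to 121815302), Acot8 on chromosome 2 (164792768 to 164820219). Acot2 (83987861 to 83993877) and Acot1 (84009502 to 84017670) stand 15624 bp apart on the plus strand of chromosome 12. Acot8 overlaps Snx21 (mean 31.9 TPM over the 9 libraries) and Zswim3 (mean 1.03 TPM), and Pex11a overlaps Wdr93 (mean 0.0722 TPM) by 184 bp. Hsd17b4 overlaps the long noncoding RNA gene Gm33376 by 10395 bp and the pseudogene Cd63-ps by 872 bp, and neither was analysed here. These overlaps are of whole gene spans, introns included, and overlap of exons was not examined. The labels do not say whether strand was used in counting, so whether any counted reads were shared is unknown.

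Acot1 and Acot2 are close copies. Their coding sequences (GENCODE M21) were identical at 95.3% of 1236 aligned bases, and 23.7% of all 50-base stretches of the Acot1 transcript were present unchanged in the Acot2 transcript. The next lines show the first 120 coding bases of Acot1 (chr12:84009510-84009629, plus strand, GRCm38) above the aligned bases of Acot2 (chr12:83988025-83988144, plus strand), because the Acot1 protein begins there. Capitals mark the 13 bases that differ, a larger share of this stretch than the 58 of 1236 over the whole alignment.
Acot1: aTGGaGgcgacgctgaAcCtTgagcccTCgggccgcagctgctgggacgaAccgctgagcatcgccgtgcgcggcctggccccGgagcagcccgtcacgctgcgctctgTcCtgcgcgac
Acot2: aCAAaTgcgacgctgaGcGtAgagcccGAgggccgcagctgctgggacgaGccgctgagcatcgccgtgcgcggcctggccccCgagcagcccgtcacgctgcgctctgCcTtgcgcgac
The Acot2 coding sequence starts earlier, with a stretch that the Acot1 coding sequence lacks and that encodes the start of the mitochondrial form (chr12:83987902-83988024, plus strand).
Acot2 start: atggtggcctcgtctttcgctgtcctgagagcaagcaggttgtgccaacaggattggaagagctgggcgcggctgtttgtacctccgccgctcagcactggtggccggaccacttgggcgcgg
Single values of Acot1 and Acot2 are therefore uncertain, and their sum is given below. Acaa1a has a copy of 96.5% coding identity, Acaa1b, which was listed at 0 to 0.67 TPM in the 9 libraries.

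Because the genes moved in one direction, their promoter windows (250 bases before to 50 bases after the start, RefSeq, GRCm38.p6) were searched on both strands for the core of the PPAR element, AGGTCA. None of the 8 members with a window held it, against 16.0% of all 27025 windows, and none held the full element, that core repeated with 1 base between, against 0.0444%. This says only that the letters are not in these windows. At such shares 8 windows may well hold neither, so their absence decides nothing about PPAR control. The GC box GGGCGG stood in 6 of the 8 windows (Acot8, Ech1, Pex11a, Acaa1a, Acot1 and Ehhadh), against 35.9% of all windows, and the CCAAT box, CCAAT, in 5 of the 8, against 37.9%. All windows here include those of genes not expressed in these libraries, so the shares are not those of like genes. Whether the 8 windows are enriched for either box, or whether the boxes relate to diet, was not tested. The windows of Ech1, the most abundant of the 9 genes, and of the neighbours Acot1 and Acot2 are shown with GC and CCAAT boxes in capitals, on either strand and without overlaps between the motifs. They lie at chr7:28825088-28825387, chr12:84009252-84009551 and chr12:83987611-83987910, each on the plus strand. The 2 Acot windows show that the copies hold their boxes at different places, Acot1 a CCAAT box 79 bases and a GC box 55 bases before its start, and Acot2 only a CCAAT box, 244 bases before its start.
Ech1: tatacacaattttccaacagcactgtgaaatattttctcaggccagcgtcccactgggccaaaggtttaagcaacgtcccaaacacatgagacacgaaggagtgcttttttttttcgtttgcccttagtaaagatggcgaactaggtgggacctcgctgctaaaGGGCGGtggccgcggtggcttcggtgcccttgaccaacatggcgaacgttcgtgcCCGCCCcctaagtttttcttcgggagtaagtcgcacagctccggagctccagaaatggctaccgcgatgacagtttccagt
Acot1: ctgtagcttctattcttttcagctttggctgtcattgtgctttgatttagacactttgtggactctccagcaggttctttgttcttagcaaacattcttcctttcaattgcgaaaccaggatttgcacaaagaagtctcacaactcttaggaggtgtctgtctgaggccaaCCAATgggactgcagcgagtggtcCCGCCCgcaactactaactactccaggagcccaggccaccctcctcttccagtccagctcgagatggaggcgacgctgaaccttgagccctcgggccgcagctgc
Acot2: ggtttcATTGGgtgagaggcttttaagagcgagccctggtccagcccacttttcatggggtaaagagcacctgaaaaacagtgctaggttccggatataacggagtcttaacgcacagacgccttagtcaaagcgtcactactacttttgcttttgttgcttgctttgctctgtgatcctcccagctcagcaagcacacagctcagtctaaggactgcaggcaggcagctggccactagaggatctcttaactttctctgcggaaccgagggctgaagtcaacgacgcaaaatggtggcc

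The 9 genes covered a wide range of levels, and 9 of 9 passed the filter on low values (mean over all libraries at least 1 TPM), with none at 0 in any library. Ech1 was the highest by far, at a mean of 315.8 TPM, above 97.3% of the genes in the table. Hsd17b4 (84.7 TPM), Acaa1a (65.1 TPM), Acot1 (63.2 TPM), Abcd3 (61.9 TPM) and Acot2 (57.8 TPM) formed a middle group. The last 4 of these lay within the spread between libraries of each other, and their order is not resolved. Acot8 (9.22 TPM), Ehhadh (7.14 TPM) and Pex11a (4.50 TPM) were the lowest, below the middle group in every library. The 2 bifunctional enzymes of the pathway thus differed in level: Hsd17b4 was 55.0 to 113 TPM and Ehhadh 3.83 to 11.98 TPM over all libraries.

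In HFD cardiomyocytes Abcd3, Ech1, Hsd17b4, Acaa1a, Pex11a, Acot1 and Acot2 fell relative to sHFD cardiomyocytes, while Ehhadh and Acot8 did not pass the test. The calls of Abcd3, Acaa1a and Pex11a were lost when single libraries were left out, as given for each below. The test was limma on log2(TPM + 1) with adjustment over the 13655 genes tested. Against sHFD, 7 of the 9 genes fell and none rose, where 23.9% of all genes tested fell and 10.3% rose, 34.2% in either direction. For 9 of 9 each HFD library lay below each sHFD library, where 34.7% of all genes did and 16.6% had each HFD library above. The log2 fold changes ran from -1.31 to -0.50 with a median of -0.74, against -0.16 for all genes tested. In bulk RNA, fewer cells of a type and less RNA per cell cannot be told apart. Against ND, 1 of the 9 genes fell and none rose, where 9.59% of all genes fell and 1.28% rose, 10.9% in either direction, and the median was -0.54, against -0.14 for all genes tested. The HFD libraries lay below the ND libraries without overlap for 3 of the 9, Ech1, Acaa1a and Acot8, where 22.9% of all genes did and 5.00% lay above. In sHFD vs ND none of the 9 passed limma's test, where 1 gene of 13655 did (0.00732%). The 9 point estimates all lay above 0, from 0.02 to 0.59 with a median of 0.20, against 0.001 for all genes tested. At an unadjusted p under 0.05 it was 1 of the 9, Acot2, where 7.36% of all genes were. None of the 9 separated sHFD from ND without overlap, where 4.50% of all genes did with sHFD higher and 4.90% with sHFD lower. Each pair of the 3 comparisons shares the libraries of 1 diet, so they are not independent of each other.

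**Figure D1:**
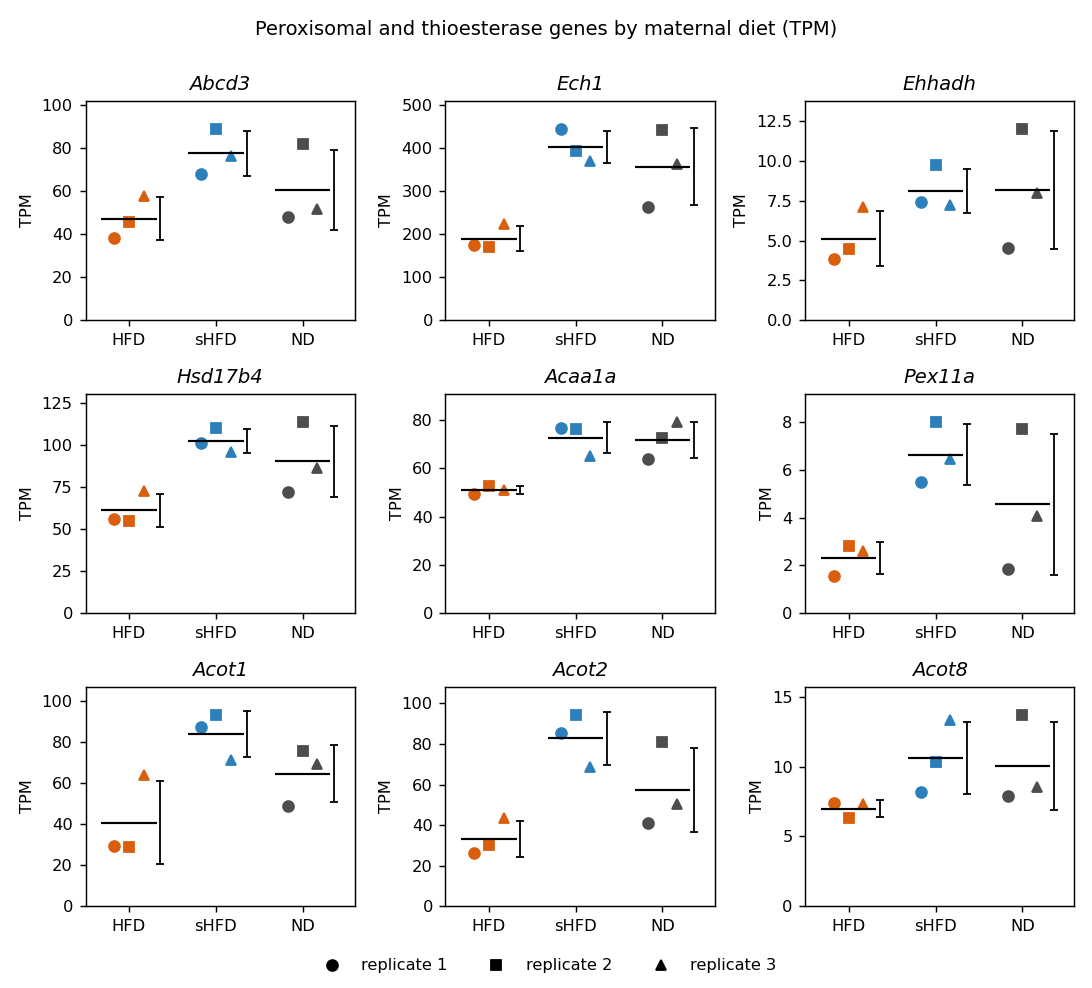
Level of each gene in TPM (vertical axes, starting at 0) in the 3 libraries of HFD, sHFD and ND. Symbols mark replicate numbers, horizontal lines the means and bars ± 1 SD; the HFD libraries lie below the sHFD libraries in each of the 9 panels, while the ND libraries spread widely, with replicate 1 lowest in 9 of 9 panels.

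Abcd3 encodes PMP70, an ABC transporter of the peroxisomal membrane that imports branched-chain and dicarboxylic acyl-CoA esters and bile acid precursors. It had 38.4, 45.8 and 57.9 TPM in the HFD libraries, against 67.9, 88.8 and 76.6 TPM in the sHFD libraries. The diets did not overlap, and Abcd3 fell by 0.72 on the log2 scale (SE 0.22, limma adjusted p = 0.023). This call was lost without sHFD replicate 2 (adjusted p = 0.0857), sHFD replicate 3 (0.0613), HFD replicate 1 (0.0873) or HFD replicate 2 (0.07). In the ND libraries Abcd3 was 48.0, 82.0 and 51.8 TPM, so that HFD and ND overlapped, and the HFD vs ND difference was -0.33 (95% interval -0.80 to 0.14, adjusted p = 0.326).

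Ech1 is a dienoyl-CoA isomerase of peroxisomes and mitochondria that readies unsaturated fatty acids for beta-oxidation. It had 174, 171 and 223 TPM in the HFD libraries, against 443, 394 and 369 TPM in the sHFD libraries. In ND it was 263, 441 and 364 TPM, so each HFD library lay below each library of the other diets. The mean was 52.9% lower in HFD than in sHFD (log2 fold change -1.09, SE 0.19, limma adjusted p = 0.00217) and 46.8% lower in HFD than in ND. Ech1 was the gene that fell in HFD vs ND, but not without ND replicate 3 (limma adjusted p = 0.0837), HFD replicate 1 (0.0723) or HFD replicate 2 (0.0924), or in a fit of those 2 diets alone (0.0511). The HFD vs sHFD call held whichever of the 9 libraries was left out.

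The bifunctional enzymes Ehhadh and Hsd17b4 hydrate the acyl-CoA and oxidise the product, Ehhadh chiefly for dicarboxylic acids and Hsd17b4 for very long-chain and branched ones. Hsd17b4 lies on chromosome 18 (50128201 to 50196270). Hsd17b4 had 56.0, 55.0 and 72.5 TPM in the HFD libraries, against 101, 110.1 and 95.9 TPM in the sHFD libraries. It fell by 0.74 (SE 0.18, limma adjusted p = 0.0092) in HFD vs sHFD, without overlap, and passed whichever of the 9 libraries was left out. The ND libraries had 71.8, 113 and 86.1 TPM, of which the lowest lay inside the HFD range, and the HFD vs ND difference was -0.54 (95% interval -0.94 to -0.15, adjusted p = 0.0711). Ehhadh had 3.83, 4.47 and 7.10 TPM in the HFD libraries, against 7.40, 9.74 and 7.22 TPM in the sHFD libraries and 4.53, 11.98 and 8.01 TPM in the ND libraries. Its highest HFD library stood just under its lowest sHFD library, and the differences of -0.60 from sHFD (95% interval -1.24 to 0.05, adjusted p = 0.135) and of -0.53 from ND (-1.17 to 0.11, adjusted p = 0.25) did not pass.

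Acaa1a, the peroxisomal thiolase that releases acetyl-CoA in the last step, was the steadiest of the 9. It had 49.2, 52.7 and 50.9 TPM in the HFD libraries, against 76.5, 76.3 and 65.1 TPM in the sHFD libraries and 63.9, 72.3 and 78.9 TPM in the ND libraries. The HFD libraries lay close together and below the 6 others. Acaa1a fell by 0.50 in HFD vs sHFD (SE 0.15, limma adjusted p = 0.0205), the smallest change among the 9, and the HFD vs ND difference was -0.48 (SE 0.15, adjusted p = 0.0533). The first call was lost under median-ratio scaling, where the difference was -0.33 (adjusted p = 0.0809), and without sHFD replicate 1 (0.0761), sHFD replicate 2 (0.0607), HFD replicate 1 (0.0608) or HFD replicate 2 (0.0585). The sum of Acaa1a and Acaa1b fell in HFD vs sHFD as well (log2 -0.50, adjusted p = 0.0198).

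Pex11a, a peroxin of the peroxisomal membrane that elongates the organelle before it divides, had 1.56, 2.81 and 2.6 TPM in the HFD libraries, against 5.47, 7.98 and 6.44 TPM in the sHFD libraries. The groups did not overlap, and Pex11a fell by 1.21 (SE 0.34, limma adjusted p = 0.0159), losing the call without sHFD replicate 2 (0.0616) or HFD replicate 1 (0.0593). In ND it was 1.87, 7.72 and 4.08 TPM, the widest relative spread of the 9 genes within a diet. That range held the HFD libraries but for the lowest, and the HFD vs ND difference was -0.62 (95% interval -1.34 to 0.11, adjusted p = 0.234). At these low levels the log2(TPM + 1) scale understates the change: the HFD mean of 2.32 ± 0.67 TPM was 65.0% below the sHFD mean of 6.63 ± 1.27 TPM (SD, n = 3 each).

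The thioesterases of the cytosol and the mitochondrion, Acot1 and Acot2, gave large differences among the 9. Acot1 had 29.6, 28.9 and 64.1 TPM in the HFD libraries, against 87.6, 93.1 and 71.5 TPM in the sHFD libraries. HFD replicate 3 stood far above the other HFD libraries but below the sHFD range, and Acot1 fell by 1.11 (SE 0.27, limma adjusted p = 0.00854). Acot2 had 26.1, 30.1 and 43.3 TPM in the HFD libraries, against 85.6, 94.1 and 68.6 TPM in the sHFD libraries, and fell by 1.31 (SE 0.25, adjusted p = 0.00275). Both calls held whichever of the 9 libraries was left out.

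In the ND libraries Acot1 was 49.1, 75.7 and 69.6 TPM and Acot2 41.1, 80.9 and 50.2 TPM, and each gene overlapped with HFD in 1 ND library, replicate 1. The HFD vs ND differences of -0.73 (SE 0.27, limma adjusted p = 0.0942) and -0.75 (SE 0.25, adjusted p = 0.0673) missed the threshold, and without HFD replicate 3 they were -1.098 (adjusted p = 0.00941) and -0.95 (adjusted p = 0.0341). In sHFD vs ND, Acot2 differed by 0.57 (95% interval 0.03 to 1.1, adjusted p = 0.672). The sum of both genes was 55.7, 59.0 and 107.5 TPM in the HFD libraries and 173, 187 and 140.1 TPM in the sHFD libraries, and it fell by 1.22 (SE 0.25, adjusted p = 0.00417). In HFD vs ND the sum differed by -0.75 (adjusted p = 0.0718). Acot1 was 0.936 to 1.48 times Acot2 in every library, the ratio being highest in HFD replicate 3 and next in ND replicate 3 (1.39).

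Acot8, the thioesterase of the peroxisome, had 7.36, 6.29 and 7.31 TPM in the HFD libraries, against 8.21, 10.3 and 13.3 TPM in the sHFD libraries and 7.92, 13.7 and 8.54 TPM in the ND libraries. The HFD libraries were lowest without overlap in both cases. The differences of -0.52 from sHFD (95% interval -1.03 to -0.01, limma adjusted p = 0.103) and -0.43 from ND (-0.94 to 0.08, adjusted p = 0.236) did not pass.

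**Figure D2:**
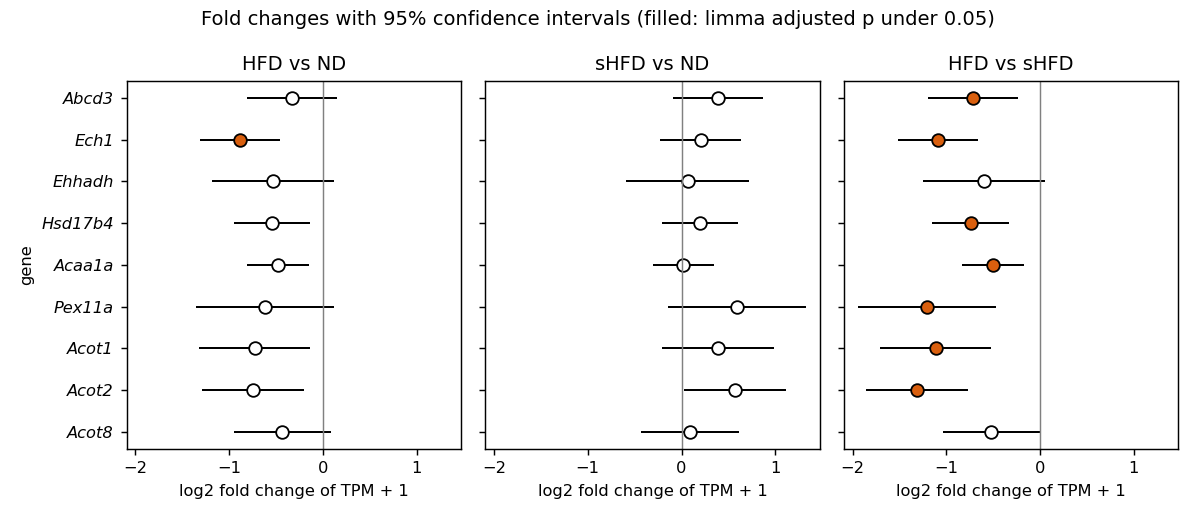
Log2 fold change of TPM + 1 with its 95% confidence interval (horizontal axes) for each gene in HFD vs ND, sHFD vs ND and HFD vs sHFD. Filled points passed limma's test: Ech1 in HFD vs ND, none in sHFD vs ND and 7 genes in HFD vs sHFD, and each point estimate is below 0 in both HFD comparisons.

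The ND libraries differed among themselves for these genes. ND replicate 1 was the lowest ND library for 9 of the 9 genes and ND replicate 2 the highest for 8. ND replicate 1 lay at or below the highest HFD library for 6 genes, ND replicate 3 for 1 gene, Abcd3, and ND replicate 2 for none. Summed over the 9 genes, the levels were 386, 397 and 529 TPM in the HFD libraries, 883, 884 and 774 TPM in the sHFD libraries, and 551, 899 and 721 TPM in the ND libraries. Without ND replicate 1, 7 of the 9 genes fell in HFD vs ND, where 20.9% of all genes did, and those that did not pass were Abcd3 and Acot8. Without HFD replicate 3, the highest HFD library for 6 of the genes, 4 fell (Ech1, Hsd17b4, Acot1 and Acot2), where 11.5% of all genes did. Without ND replicate 3, HFD replicate 1 or HFD replicate 2, none of the 9 passed limma's test in HFD vs ND, while 39, 127 and 32 of all genes did. Against sHFD the count of falling genes was 4 without sHFD replicate 2, where 15.2% of all genes fell, and 4 without HFD replicate 1, where 16.0% did.

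**Figure D3:**
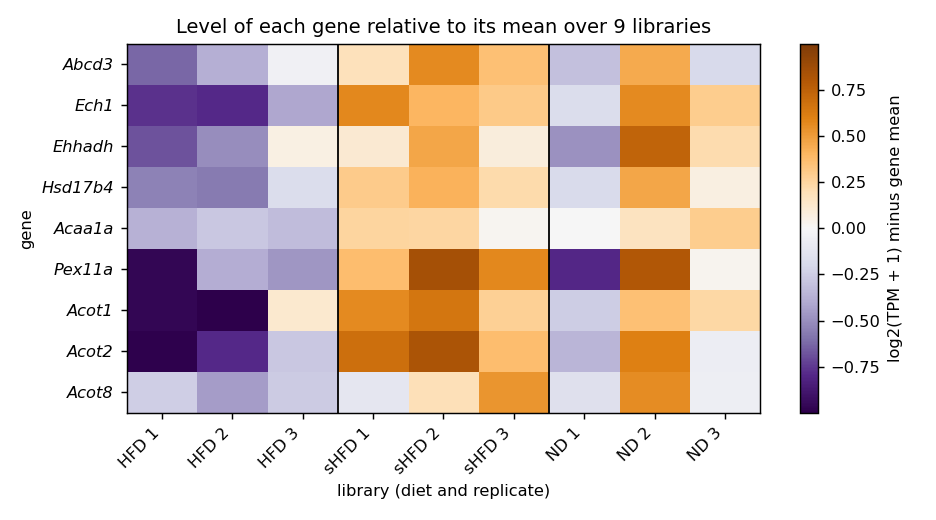
Difference of log2(TPM + 1) from each gene's mean over the 9 libraries (colour scale), with genes in rows by role and libraries in columns by diet and replicate. The HFD columns are below the mean for 7 of the 9 genes, with Ehhadh and Acot1 slightly above it in HFD replicate 3, and ND replicate 1 is below its diet's other libraries in each row.

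Other genes of peroxisomal fatty acid oxidation, taken from a list of 21 of which 18 passed the filter, also fell in HFD. Against sHFD 12 of the 18 fell and none rose (median -0.76), and against ND 4 fell and none rose (median -0.56); shares of all genes are as given above. Among these were Amacr, a racemase of branched acyl-CoA (log2 -1.11, limma adjusted p = 0.0171), Acox3, an oxidase of branched acyl-CoA (-1.03, 0.0176), and Nudt7, a peroxisomal coenzyme A hydrolase (-1.06, 0.0334). Amacr averaged 6.35 ± 1.53 TPM in HFD and 15.0 ± 4.27 TPM in ND (SD, n = 3 each). In sHFD vs ND 0 of the 18 passed, and 1 did so at an unadjusted p under 0.05.

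Peroxins build and divide the organelle. Of 15 besides Pex11a, 6 fell and none rose in HFD vs sHFD (median -0.23), where 23.9% of all genes fell and 10.3% rose. In HFD vs ND 1 of the 15 fell, where 9.59% of all genes did. It was Pex6, an ATPase that recycles the import receptor (log2 -1.12, limma adjusted p = 0.0121). Pex26, its membrane anchor, and Pex11g, a relative of Pex11a, had differences of -0.71 and -0.84 (adjusted p = 0.0617 and 0.0652). The median of -0.16 was near that of all genes, -0.14. Of 17 tested peroxisomal enzymes and membrane proteins outside these lists, 8 fell and 2 rose in HFD vs sHFD, against the same 23.9% and 10.3%. Hao1, a hydroxyacid oxidase, and Far2, a fatty acyl-CoA reductase, were the 2 that rose (log2 1.45 and 1.18, adjusted p = 0.00437 and 0.0128). Hao1 was low, at a mean of 3.43 TPM in HFD and 0.60 TPM in sHFD, while Far2 had 16.9 and 7.02 TPM. In HFD vs ND 3 of the 17 fell, where 9.59% of all genes did. They were Mlycd, malonyl-CoA decarboxylase (-1.17), Pxmp4, a membrane protein (-0.74), and Pipox, an oxidase of pipecolic acid (-0.86), with adjusted p of 0.0195, 0.0313 and 0.0394. Pipox averaged 0.82 TPM in HFD and 2.21 TPM in ND, near the filter of 1 TPM.

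Among 13 other acyl-CoA thioesterases 8 passed the filter. Against sHFD 5 fell, Acot7, Acot11, Them4, Acot13 and Acot6 (log2 -1.71 to -0.67), and none rose, where 23.9% of all genes fell and 10.3% rose. Acot7, a cytosolic thioesterase abundant in brain, fell in HFD vs ND by 1.07 (limma adjusted p = 0.00646), with 48.0 ± 7.69 TPM in HFD and 101.5 ± 10.3 TPM in ND (SD, n = 3 each). Acot11, a thioesterase known from brown fat, fell by 1.08 (adjusted p = 0.0401) with overlapping libraries. Acot4, a peroxisomal thioesterase, had a difference of 0.45 in HFD vs ND (adjusted p = 0.224) and stayed under 2 TPM in each library.

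Of 13 PPAR factors and cofactors, 5 fell and 1 rose in HFD vs sHFD, where 23.9% of all genes fell and 10.3% rose. Esrra, Rxrg, Ppargc1b, Ppara and Ppard, nuclear receptors or coactivators of fatty acid oxidation, were the 5 (log2 -0.99 to -0.62, limma adjusted p from 0.00514 to 0.0217). Nrip1, a corepressor of such receptors, rose by 1.19 (adjusted p = 0.00694). Ppara averaged 4.51 ± 0.27 TPM in HFD and 9.53 ± 0.31 TPM in sHFD, against 4.70 ± 2.58 TPM in ND (SD, n = 3 each). In HFD vs ND 0 of the 13 passed, against 4 at an unadjusted p under 0.05, where 29.8% of all genes were. Ppard, Rxrg and Esrra had the smallest p (adjusted p = 0.086, 0.109 and 0.144). In mitochondrial beta-oxidation, 14 of 18 genes fell in HFD vs sHFD (median -1.002), where 23.9% of all genes did. In HFD vs ND 4 fell (median -0.54), where 9.59% of all genes did, and none rose in either comparison. The 4 were Cpt2, Cpt1a and Slc25a20 of the carnitine shuttle and Acadvl, the very long-chain acyl-CoA dehydrogenase (log2 -1.17, -1.02, -0.74 and -0.78).

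**Figure D4:**
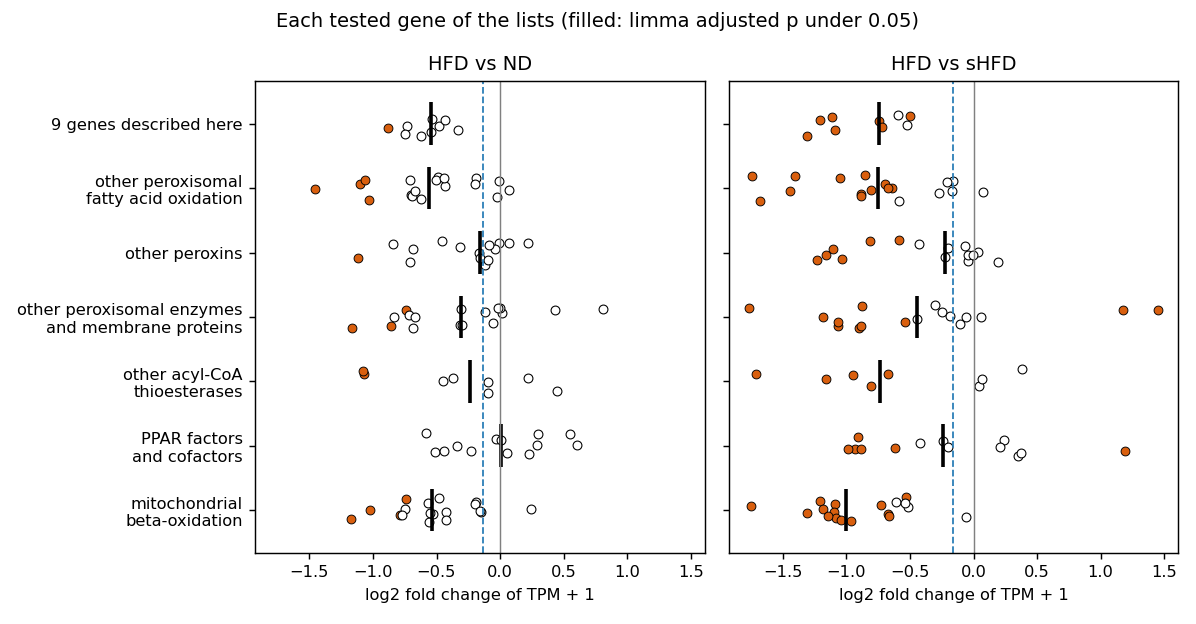
Log2 fold change of TPM + 1 (horizontal axes) of each tested gene of the 9 and of the 6 related lists in HFD vs ND and HFD vs sHFD. Filled points passed limma's test, thick bars are list medians and dashed lines the medians of all genes tested (-0.14 and -0.16); medians of the 9 genes lie at -0.54 and -0.74.

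The balance of all genes depended on the scaling, while the 9 genes stayed negative in both HFD comparisons under each scaling run. In HFD vs ND 175 genes rose and 1309 fell without scaling, and 644 rose and 996 fell after median-ratio scaling of the libraries, and 427 rose and 637 fell after quantile normalization. Against sHFD 1406 rose and 3259 fell without scaling, 2612 rose and 2592 fell with the median ratio, and 2401 rose and 2407 fell with quantiles. Under the median ratio the median of all genes was 0.007 for HFD vs ND, and -0.004 against sHFD. The 9 genes then had medians of -0.40 in HFD vs ND, with 1 of them falling, and -0.575 in HFD vs sHFD, with 6 falling.

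Markers of other cells were checked for the isolate. The 11 cardiomyocyte markers summed to 34297 to 46986 TPM in the HFD libraries, 41014 to 47884 TPM in the sHFD libraries and 27486 to 41153 TPM in the ND libraries. Of these 1 rose and 1 fell against sHFD, and 1 rose against ND. For these and the markers below, 23.9% of all genes fell and 10.3% rose against sHFD, and 9.59% fell and 1.28% rose against ND. Hepatocytes are rich in peroxisomal transcripts. Of 8 hepatocyte markers 7 were among the 18738 genes, and the albumin gene Alb was not, so it could not be checked. The 7 summed to 3.64 to 5.45 TPM in HFD, 1.60 to 3.13 TPM in sHFD and 2.16 to 3.78 TPM in ND. Apoa1, Serpina1a, Afp and Fgb were at 0 in at least 1 library. Of 6 brown fat markers, Cidea reached 29.9 TPM, and the highest value of the defining marker Ucp1 was 0.6 TPM. The 6 summed to 12.9 to 15.9 TPM in HFD, 21.9 to 30.7 TPM in sHFD and 18.3 to 26.4 TPM in ND. Only Cidea passed the filter on low values. It fell in HFD vs sHFD (log2 -0.82, limma adjusted p = 0.0117) and did not pass in HFD vs ND (-0.47, adjusted p = 0.161). Immune cell markers fell in HFD vs ND in 10 of 10 cases and in HFD vs sHFD in 6, with sums of 232 to 273 TPM in HFD, 324 to 413 TPM in sHFD and 424 to 582 TPM in ND. Red cell markers summed to 2638 to 4836 TPM in HFD, 5910 to 8304 TPM in sHFD and 5005 to 12252 TPM in ND, and fell in 5 of 6 cases in HFD vs sHFD and in 1 in HFD vs ND. Endothelial markers summed to 6865 to 7107 TPM in HFD, 6594 to 8312 TPM in sHFD and 5665 to 9621 TPM in ND. Of these 1 of 8, Kdr, fell in HFD vs sHFD (log2 -0.46, limma adjusted p = 0.0245) and none rose. The point estimates against sHFD were above 0 for 6 and below 0 for 2. Their median was 0.10, against -0.16 for all genes tested. The HFD libraries lay above sHFD without overlap for 3 and below for 1, where 16.6% and 34.7% of all genes did. None passed in HFD vs ND, against 1 at an unadjusted p under 0.05. Smooth muscle and pericyte markers summed to 1372 to 1596 TPM in HFD, 1665 to 2435 TPM in sHFD and 1286 to 1541 TPM in ND. They fell in 6 of 8 cases in HFD vs sHFD and 4 in HFD vs ND. Fibroblast markers summed to 8855 to 9928 TPM in HFD, 7392 to 9724 TPM in sHFD and 9097 to 11247 TPM in ND. Of 8 fibroblast markers 0 passed limma's test in either comparison. At an unadjusted p under 0.05 it was 1 in HFD vs sHFD (45.6% of all genes) and 2 in HFD vs ND (29.8% of all genes). The part of these cells in the results was not tested.

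The genes nearest in pattern to each member were sought among 10943 others by Pearson correlation of log2(TPM + 1) over the 9 libraries. All genes share these libraries, with their diets and the wide spread within ND. The nearest to Acot2 were Acadvl (0.994) and Rad50 (0.992), to Ech1 Mon1a (0.993) and Ftsj1 (0.992), and to Hsd17b4 Lenep (0.995) and Ahsa2 (0.994). Pex11a was nearest to Klhl23 (0.995) and Krt222 (0.994), Acot1 to Ttc12 (0.991) and Ezh1 (0.984), and Abcd3 to Pdpr (0.989) and Osbp (0.988). Acaa1a, Ehhadh and Acot8 had looser neighbours, Thop1 (0.983) and Lst1 (0.978), Mospd2 (0.983) and Enox2 (0.980), and Snapc3 (0.971) and Dcaf17 (0.946).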

How the data were processed

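RNA-seq libraries of cardiomyocytes from newborn mice of 3 maternal diets were analysed, with 3 libraries per diet. The authors deposited 1 table of 18738 genes with 1 column of TPM (a length-corrected share of all transcripts) for each library. Per the submitters' processing notes RSEM 1.3.1 and GRCm38 were used, with no role stated; which aligner and annotation is not given in the sources used here. Columns named CON, MID and HIGH were read as the normal, slight high-fat and high-fat diet, with their replicate numbers. TPM keeps no read number, so the depth and the counting precision of each library are unknown.

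Values were taken as log2(TPM + 1) without further scaling. Genes averaging 1 TPM or more across all libraries, 13655 in number, were fitted in limma 3.58.1 under R 4.3.3, with the 3 diets as groups, an intensity trend on the variance, two-sided p-values and Benjamini-Hochberg adjustment over all genes tested at a threshold of 0.05. The fit was tested on simulated data with independent noise for each gene and library. Such data hold no shifts shared by the genes of a library, so they do not measure false calls here. With 3 libraries a side, exact permutation p-values stop at 0.1, so none was used. The 9 genes, the gene lists and the markers were chosen with earlier results of these data known. Genes named beside the 9 were the top 3 of each list by p for HFD vs ND, all genes of a list called in a direction where 5 or fewer were, and the 2 genes nearest in pattern to each of the 9 among those with a mean of at least 5 TPM and no clone or predicted name. A gene that the rule would name is not reported here. Gene positions and promoter windows were taken from RefSeq for GRCm38.p6 through the Entrez identifiers, which matched for 9 of 9 genes, and coding sequences from GENCODE M21 on the same build. Biopython 1.88 aligned the coding sequences. Alternatives covered the pseudocount, the filter, the scaling, the variance model, the libraries fitted, a replicate block and each library left out. A sum of near-identical paralogs was added after seeing the data.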

Additional observations from a re-analysis of the deposited data

How the results depend on the processing

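The 9 genes kept their negative direction in both HFD comparisons under all alternatives run. Of the 9, the number passing in HFD vs ND was 1 in the reported fit, 0 when only those 2 diets were fitted and 0 to 7 over the 9 fits with a library left out. It was 7 in HFD vs sHFD, with 8 when only those diets were fitted and 4 to 7 over the fits with a library left out, and 0 in sHFD vs ND throughout. Among all genes, the count in HFD vs ND was 1484, against 763 with no filter on low values, 420 with only the 2 diets and 32 to 3842 with a library left out. In sHFD vs ND it was 1, against 0 with a pseudocount of 0.1, with no filter, with a mean of at least 5 TPM and with the replicate block, 2 with only the 2 diets, and 0 to 360 with a library left out. In HFD vs sHFD it was 4665, against 5616 with only the 2 diets and 2696 to 5458 with a library left out. The sHFD vs ND differences of Ehhadh (-0.26 to 0.36), Acaa1a (-0.0591 to 0.096) and Acot8 (-0.0763 to 0.31) changed sign with a library left out. The cause of these changes was not tested. In the 2-diet fit Ehhadh passed in HFD vs sHFD (adjusted p = 0.0486). Replicate numbers showed no clear pairing of the libraries, though so few libraries cannot exclude it. Deviations from the diet means correlated from -0.287 to 0.413 between libraries of 1 number and from -0.352 to 0.347 between others. With the replicate block the 9 genes gave 1, 0 and 7 calls in HFD vs ND, sHFD vs ND and HFD vs sHFD, and all genes 1686, 0 and 4722. Pex11a, with a mean under 5 TPM, was not tested under the stricter filter. TPM gives no depth, so how far read number limits the lowest genes, Pex11a, Ehhadh and Acot8, is unknown.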
